A study of Mus musculus with 16 samples.

Results

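Chromatin-associated RNA from mouse embryonic stem cells labelled as overexpressing full-length KDM6A was compared with RNA from cells labelled as overexpressing full-length KDM6B. The comparison takes 4 of the 16 libraries of the series, chosen by their labels alone, with 2 libraries for each demethylase. E14TG2a cells, a mouse embryonic stem cell line, were grown with LIF at 1000 U per ml, the MEK inhibitor PD0325901 at 1 µM and the GSK3 inhibitor CHIR99021 at 3 µM. The FL KDM6A group is labelled as overexpressing (OE) full-length KDM6A, and the FL KDM6B group as overexpressing full-length KDM6B. The other groups carried the same 2 proteins without an intrinsically disordered region (IDR), or KDM4A or KDM4B, each full-length or without an IDR. No group was thus free of a construct. All 16 libraries entered the fits from which p-values were taken. The labels do not give the promoter, the species or the tag of the constructs, nor whether replicate libraries stem from different cultures, so p-values measure only the spread between these libraries, which may be technical.

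KDM6A, also called UTX, and KDM6B, also called JMJD3, are the histone demethylases that remove methyl groups from lysine 27 of histone H3, the mark that Polycomb repressive complex 2 (PRC2) writes. KDM6A is encoded on the X chromosome, carries tetratricopeptide repeats and is a stable subunit of the MLL3/MLL4 complexes, which methylate lysine 4 of histone H3 at enhancers. KDM6B has no such repeats and is known as a protein induced by inflammatory and developmental signals, and UTY is the Y-linked relative of KDM6A. Chromatin-associated RNA is rich in nascent and retained nuclear transcripts, so levels here are not levels of total RNA.

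FL KDM6A libraries held 41712736 and 32744671 reads over genes, and FL KDM6B libraries 48894860 and 47069827. The 2 libraries of each group correlated at 0.980 to 0.988 in log2 CPM, the normalised read counts used below, across the 8 groups. On the first axis of a multidimensional scaling plot of all 16 libraries, which holds 39.5% of the variance, FL KDM6A libraries lay at 0.83 and 0.76 and FL KDM6B libraries at -1.66 and -1.71. IDR-deleted KDM6B (-1.62 and -1.56) and IDR-deleted KDM4A (-1.66 and -1.67) shared the FL KDM6B end. Repeat copies drew 90.9 and 91.6 reads per 100 gene reads with FL KDM6A, against 59.7 and 58.6 with FL KDM6B. IDR-deleted KDM4A had 60.9 and 62.0 and IDR-deleted KDM6B 50.1 and 50.2. Ribosomal protein genes took 0.956% and 0.948% of gene reads with FL KDM6A, against 2.14% and 2.18% with FL KDM6B. ERCC RNAs, synthetic RNAs that the labels do not mention, came to 0.695% and 0.730% of gene reads with FL KDM6A, against 1.15% and 1.24% with FL KDM6B. Both FL KDM6B libraries lie on one side of this split and both FL KDM6A libraries on the other, and the labels name no batch, so the split and the construct cannot be told apart.

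Kdm6a reads separated the groups and Kdm6b reads hardly did. Kdm6a had 441 and 425 CPM in FL KDM6A libraries, against 98.6 and 100.2 CPM in FL KDM6B libraries, and 136 to 156 CPM in the 4 full-length KDM4 libraries. Its log2 fold change was 2.12 ± 0.04 (SE here and below, edgeR adjusted p 8.05e-32). Kdm6b had 70.1 and 69.1 CPM in FL KDM6A libraries, against 78.1 and 85.2 CPM in FL KDM6B libraries. The groups did not overlap, but both FL KDM6B values lay close to the 74.4 to 77.5 CPM of the full-length KDM4 libraries. The Kdm6b difference of -0.23 ± 0.06 (edgeR adjusted p 0.00153) became -0.16 (adjusted p 0.0681) without the second FL KDM6B library and 0.70 with ERCC scaling, so a Kdm6b excess of the size seen for Kdm6a was not detected. Whether the gene counts can capture reads of the KDM6B construct is not known. Uty rose as well, with 27.6 and 29.0 CPM in FL KDM6A libraries, against 16.8 and 17.4 CPM in FL KDM6B libraries (log2 fold change 0.73). Full-length KDM4 libraries held 34.0 to 67.5 CPM of Uty, above both KDM6 groups. Of the KDM4 genes, Kdm4a was lower by TMM (-0.45) and higher by ERCC scaling (0.47), and Kdm4b did not pass the test (-0.09, adjusted p 0.239).

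**Figure D1:**
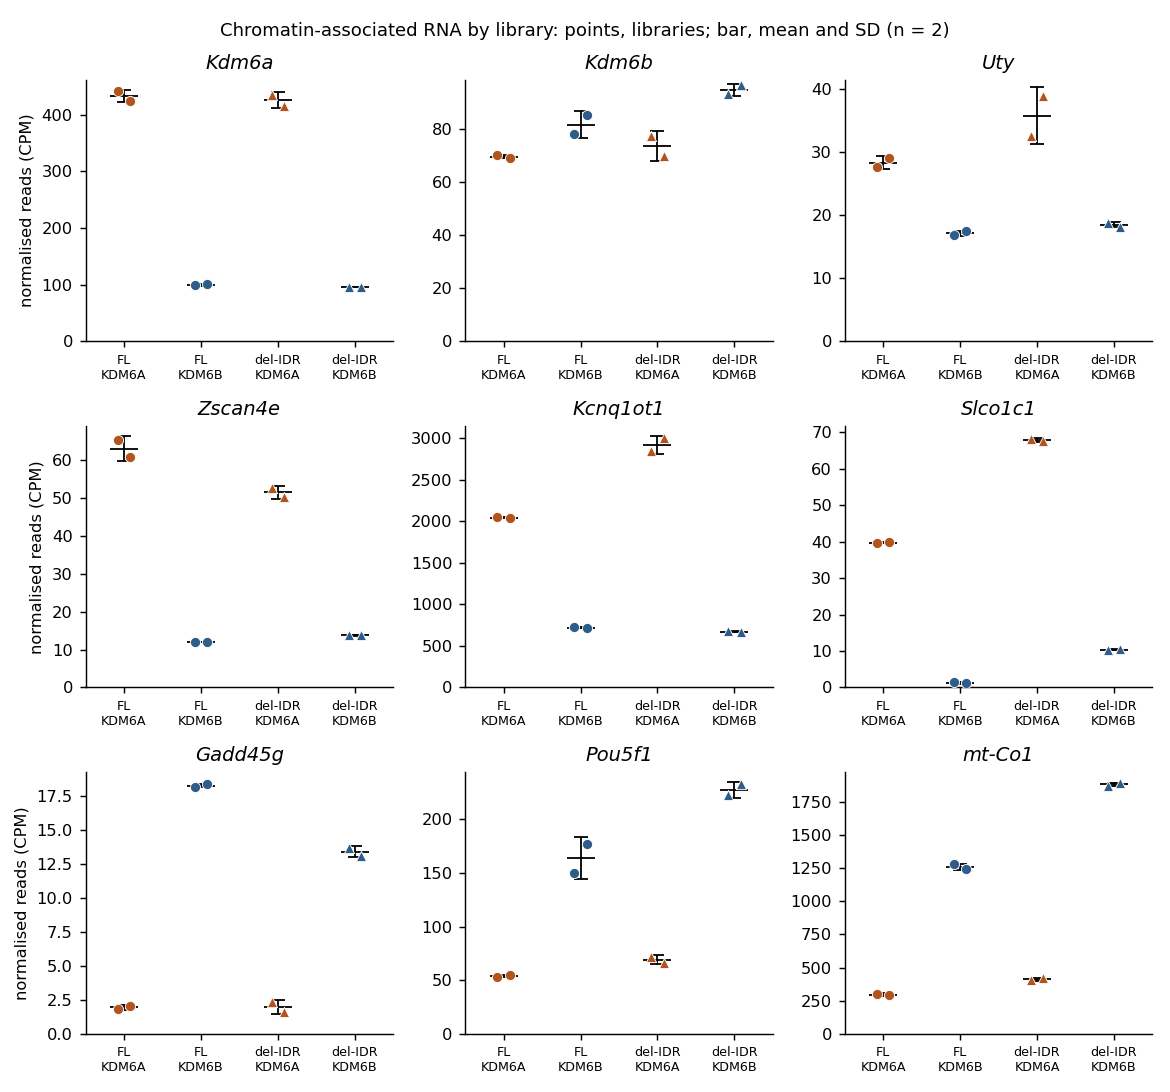
Normalised reads (CPM, linear axis from 0) of 9 genes in the full-length (circles) and IDR-deleted (triangles) KDM6A and KDM6B libraries, with the mean and SD of 2 libraries. Kdm6a lies at 441 and 425 CPM in FL KDM6A libraries, against 98.6 and 100.2 CPM in FL KDM6B libraries, whereas Kdm6b differs by much less.

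Across the transcriptome, 15759 of 31057 genes tested (50.7%) passed an adjusted p of 0.05 in edgeR's quasi-likelihood test. Of these, 7981 (25.7%) rose and 7778 (25%) fell with FL KDM6A, and 1518 rose and 261 fell by at least 4-fold. The 2 libraries of one group lay beyond both of the other for 23119 genes (74.4%). These directions are relative to the average gene: with ERCC RNAs as the basis of scaling the median gene moved up by 0.92 on the log2 scale, 22176 genes rose and 825 fell, and 4531 calls took the opposite direction. Whether equal amounts of ERCC RNA went into each sample is not given in the sources used here.

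Gene classes differed in direction with TMM. Protein-coding genes other than olfactory and vomeronasal receptors gave 3461 rises and 6930 falls among 17032 tested, and 12936 rises and 619 falls with ERCC scaling. Classes with little or no coding potential leaned to rises under both scalings, so they differed from protein-coding genes in direction with TMM only. Of 2008 TEC genes, models that await experimental confirmation, 1113 rose and 51 fell, with a median log2 fold change of 0.85. Of 4760 long noncoding genes 1416 rose and 267 fell, of 256 sense-intronic transcripts 129 rose and 9 fell, and of 3327 processed pseudogenes 1001 rose and 349 fell. TEC genes took 1.49% and 1.5% of gene reads with FL KDM6A, against 0.831% and 0.786% with FL KDM6B. Among protein-coding genes the share of falls climbed with the level, being 6.94% in the lowest of 5 equal bins and 58.8% in the highest. The median log2 fold change did not follow it throughout, at 0.36, -0.06, -0.23, -0.22 and -0.19 from the lowest bin to the highest. With ERCC scaling the lowest bin gave 1708 rises and 37 falls of 3458, and the highest 3178 and 140 of 3458. The share of rises went with exon length, at 15.1% in the shortest of 5 bins and 33.4% in the longest. Strand was ignored in the counting, so reads of a gene and of an antisense or overlapping neighbour cannot be told apart.

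**Figure D2:**
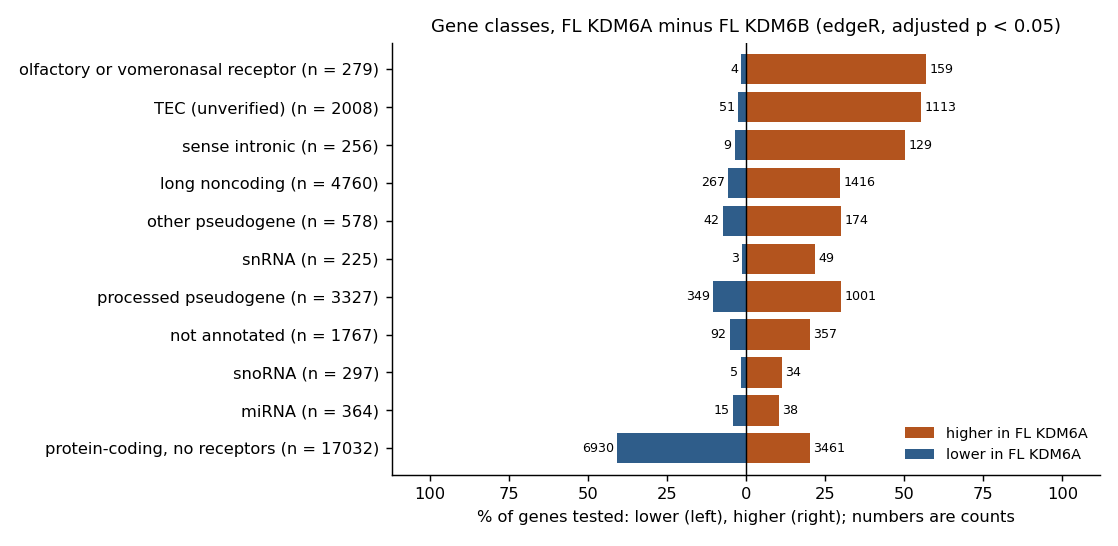
Percent of genes tested in each class that were lower (left) or higher (right) in FL KDM6A than in FL KDM6B, with the counts at the bar ends. Only protein-coding genes show more falls (6930) than rises (3461), and with ERCC scaling they show 12936 rises and 619 falls.

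The largest rises named here were mostly genes near 0 in FL KDM6B. Slco1c1, a thyroid hormone transporter gene on chromosome 6 (141470094 to 141515903, GRCm39), had 39.6 and 39.9 CPM in FL KDM6A libraries, against 1.45 and 1.15 CPM in FL KDM6B libraries (log2 fold change 4.93 ± 0.09, edgeR adjusted p 2.12e-33). The groups were far apart, and full-length KDM4 libraries reached 72.2 to 278 CPM. Vmn2r79, a vomeronasal receptor gene on chromosome 7, had 5.96 and 6.17 CPM with FL KDM6A, against 0.0433 and 0.135 CPM with FL KDM6B (6.05 ± 0.26). Olfr164, Olfr167, Olfr366 and Olfr1431, odorant receptor genes, rose by 4.67 to 5.33 on the log2 scale. Vmn1r-ps29 had 89 reads in the FL KDM6A libraries and 0 in the FL KDM6B libraries, at least 33.8-fold higher when 3 reads over the group stand for the floor. With 2 reads in FL KDM6B, Gria1, an AMPA glutamate receptor subunit gene, gave a ratio of 75.8 (95% counting interval 20.6 to 633), Iglv1 83.8 (22.8 to 698) and Vmn1r52 47.3 (12.7 to 397), and Iglc3, with 3 reads, 34.6 (11.5 to 171). Iglv1 and Iglc3 are immunoglobulin lambda segments and, like the receptor genes, have near-identical relatives among which reads may be divided uncertainly.

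The largest falls included developmental and stress-response genes. Gadd45g, a stress and differentiation gene on chromosome 13, had 1.83 and 2.06 CPM in FL KDM6A libraries, against 18.2 and 18.4 CPM in FL KDM6B libraries (-3.24 ± 0.15, edgeR adjusted p 1.49e-20). Both FL KDM6A values lay within the 1.66 to 2.49 CPM of the full-length KDM4 libraries. Tat, the tyrosine aminotransferase gene, had 0.316 and 0.60 CPM with FL KDM6A, against 5.16 and 6.10 CPM with FL KDM6B (-3.64 ± 0.35). Msx1, a homeobox gene (-3.57), H19, an imprinted noncoding RNA (-3.38), and S100a6, a calcium-binding protein gene (-3.20), fell as well. Inka1, Fgg (a fibrinogen chain) and Gpx6 (a glutathione peroxidase) fell by 2.71 to 3.01. Olfr1351 (-2.74) was a receptor gene in the opposite direction to most of its class. The other named falls, Rpl31-ps9, Ftl1-ps2 and Ndufb4c, are copies of housekeeping genes that can share reads with their parents. Each of these falls kept its direction with ERCC scaling.

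CpG content at promoters differed between genes that rose and genes that fell. Promoters of 3 fallen and 2 risen genes show the range, with every CG in capitals. Gadd45g and Msx1 are CG-dense and Tat, a fall as large, is not. They are the 250 bases before the start of the gene from RefSeq, GRCm38.p6, 5′ to 3′ on the strand of the gene. The positions are chr13:51846425-51846674 (plus strand), chr5:37824586-37824835 (minus strand), chr8:109990186-109990435 (plus strand), chr6:141524104-141524353 (plus strand) and chr7:86996215-86996464 (plus strand).
Gadd45g: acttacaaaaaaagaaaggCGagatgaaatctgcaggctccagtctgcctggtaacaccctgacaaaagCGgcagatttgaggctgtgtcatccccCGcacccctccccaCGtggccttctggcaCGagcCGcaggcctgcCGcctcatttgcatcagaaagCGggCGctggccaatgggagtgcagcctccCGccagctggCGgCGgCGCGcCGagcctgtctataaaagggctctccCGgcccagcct
Msx1: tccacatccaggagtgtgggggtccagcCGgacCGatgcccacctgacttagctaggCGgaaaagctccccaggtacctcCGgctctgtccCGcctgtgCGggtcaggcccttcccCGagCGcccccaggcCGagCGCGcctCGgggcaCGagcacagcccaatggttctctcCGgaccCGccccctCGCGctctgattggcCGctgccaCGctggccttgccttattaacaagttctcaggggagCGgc
Tat: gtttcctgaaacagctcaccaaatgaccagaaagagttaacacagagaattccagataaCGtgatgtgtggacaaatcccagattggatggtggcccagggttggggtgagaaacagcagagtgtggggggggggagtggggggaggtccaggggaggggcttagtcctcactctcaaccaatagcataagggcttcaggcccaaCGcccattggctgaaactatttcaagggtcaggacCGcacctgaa
Slco1c1: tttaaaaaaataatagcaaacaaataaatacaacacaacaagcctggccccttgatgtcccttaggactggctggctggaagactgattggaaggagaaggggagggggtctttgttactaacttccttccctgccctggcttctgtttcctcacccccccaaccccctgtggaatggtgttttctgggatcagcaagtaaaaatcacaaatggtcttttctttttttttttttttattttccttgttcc
Vmn2r79: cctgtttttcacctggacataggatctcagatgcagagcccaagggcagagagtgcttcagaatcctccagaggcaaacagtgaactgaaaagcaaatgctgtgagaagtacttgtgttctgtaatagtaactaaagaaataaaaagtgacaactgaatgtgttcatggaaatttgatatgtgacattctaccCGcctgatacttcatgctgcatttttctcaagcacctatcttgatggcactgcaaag
The window holds 16 CG for Gadd45g, 20 for Msx1 and 3 for Tat, 0 for Slco1c1 and 1 for Vmn2r79. The letters CG, which read the same on both strands, occur in 91.7% of the 27025 promoters of the table. A promoter was called CpG-rich above 50% GC with an observed over expected CG ratio above 0.6, which holds for 31.2% of them. Of the largest falls with a promoter in the table, Gadd45g, Msx1 and Inka1 (18 CG) were CpG-rich and Tat, Fgg (4 CG), Gpx6 (3 CG), S100a6 (3 CG) and Olfr1351 (2 CG) were not. Of the largest rises, Slco1c1, Vmn2r79, Vmn1r52, Olfr164, Olfr366 and Olfr1431 were not CpG-rich either. Of the protein-coding genes tested, 13299 of 17290 had a promoter. CpG-rich promoters made up 43.0% of 2745 genes that rose and 66.4% of 5456 that fell, against 43.1% of 5098 not called. The level of the gene goes with both measures. Within the lowest of 3 equal bins by level the shares were 17.4% of risen, 48.2% of fallen and 24.3% of uncalled genes, and within the highest bin 69.1%, 74.5% and 77.4%. Most rises and falls in the highest bin thus had CpG-rich promoters alike, and most falls become rises with ERCC scaling, so the contrast is one of relative change.

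Genes of the complexes that KDM6A joins and opposes mostly differed by little. Of 8 MLL3/MLL4 complex genes tested, 0 rose and 4 fell, against 7 rises and 1 fall with ERCC scaling. Dpy30, a core subunit of all MLL complexes, had 24.6 and 24.4 CPM with FL KDM6A, against 62.1 and 65.8 CPM with FL KDM6B (-1.38 ± 0.06, edgeR adjusted p 2.42e-20), and remained the 1 fall under ERCC scaling. Rbbp5 (-0.40), Wdr5 (-0.19) and Ncoa6 (-0.17) fell by less and turned upward with ERCC scaling. The catalytic subunits Kmt2c (800 and 794 CPM with FL KDM6A, against 809 and 788 CPM with FL KDM6B) and Kmt2d (562 and 544 CPM, against 505 and 531 CPM) did not pass the test, nor did Ash2l (0.04) and Paxip1 (0.03).

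PRC2 genes gave 2 rises and 9 falls among 13 tested with TMM, and 13 rises and 0 falls with ERCC scaling. The core gene Suz12 had 371 and 384 CPM with FL KDM6A, against 587 and 542 CPM with FL KDM6B (-0.58 ± 0.05). Ezh1, the alternative methyltransferase, fell by 0.69 and Ezh2 by 0.18 on the log2 scale. The histone-binding subunits Rbbp4 (-0.63) and Rbbp7 (-0.37) and the accessory gene Epop (-0.27) fell too. Aebp2 (0.24) and Phf1 (0.45), accessory subunits, rose. The differences of Eed (-0.10, adjusted p 0.0499), Jarid2 (-0.10) and Phf19 (-0.37) were past the threshold but lost it when single libraries were left out, down to -0.08 (adjusted p 0.19) for Eed, -0.08 (0.111) for Jarid2 and -0.26 (0.129) for Phf19. Mtf2 (-0.01) and AU022751, the PRC2 inhibitor gene Ezhip (0.19), did not pass.

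Other chromatin genes gave more falls than rises with TMM, as did protein-coding genes at large (20.3% higher and 40.7% lower, with 58.8% lower in the highest level bin), and more rises with ERCC scaling. PRC1 genes gave 6 rises and 15 falls of 24 (18 and 2 with ERCC scaling), with Auts2 at 0.51. Of 22 other histone demethylase genes 4 rose and 11 fell (19 and 0 with ERCC scaling), with Kdm5b, which acts on H3K4, at 0.54 and Phf2 at -0.73. H3K9 and heterochromatin genes gave 5 rises and 10 falls of 21 (21 and 0 with ERCC scaling), among them Fam208a, the HUSH subunit TASOR (0.54), and Uhrf1 (-0.55). Of 15 DNA methylation and demethylation genes 3 rose and 11 fell (13 and 2 with ERCC scaling). Tet1, which oxidises methylcytosine, had 2082 and 2049 CPM with FL KDM6A, against 1442 and 1455 CPM with FL KDM6B (0.51 ± 0.03). Dnmt3b, a de novo methyltransferase, had 45.2 and 42.4 CPM, against 109 and 108 CPM (-1.31 ± 0.06).

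Developmental regulators that Polycomb is known to bind in embryonic stem cells were low in all libraries. Of 68 tested, 2 rose and 28 fell (14 and 6 with ERCC scaling), with a median log2 fold change of -0.70 against 0.08 over all genes. Their summed level was 128 and 130 CPM with FL KDM6A, against 189 and 188 CPM with FL KDM6B. Gata2, a transcription factor of blood and trophoblast lineages, had 1.90 and 1.60 CPM, against 7.37 and 8.13 CPM (-2.14 ± 0.18). Of 36 Hox genes 6 rose and 7 fell (16 and 0 with ERCC scaling), and their direction differed by gene. Hoxb9 had 19.6 and 19.4 CPM with FL KDM6A, against 7.67 and 9.28 CPM with FL KDM6B (1.20 ± 0.10), whereas Hoxa10 had 0.925 and 0.771 CPM, against 2.34 and 1.85 CPM (-1.3 ± 0.29).

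**Figure D3:**
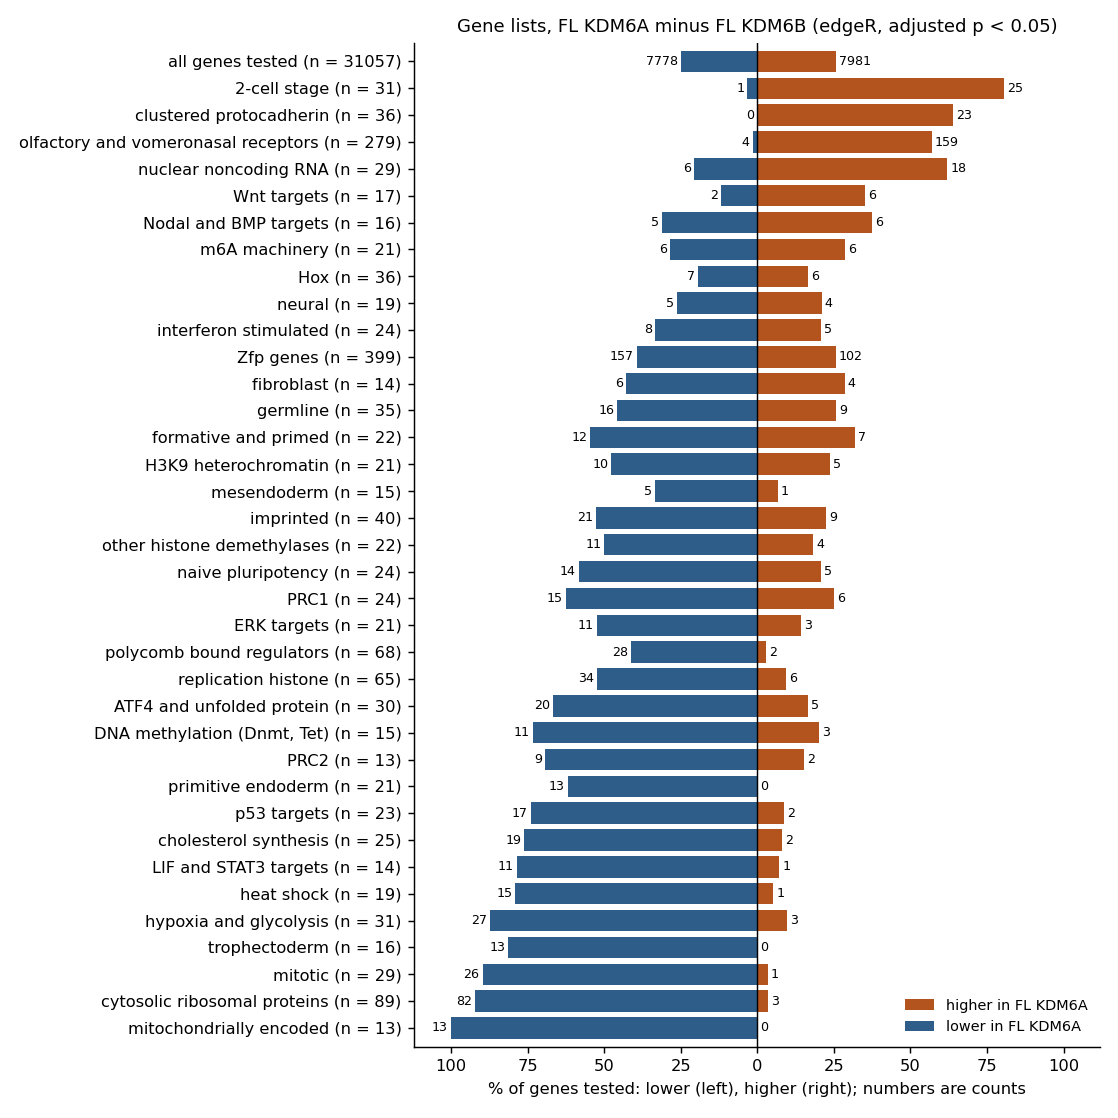
Percent of tested genes in each list with at least 10 tested that were lower (left) or higher (right) in FL KDM6A than in FL KDM6B, with counts at the bar ends and all 31057 genes for comparison. The 2-cell-stage list holds 25 rises and 1 fall and the mitochondrially encoded list 13 falls. Of all 39 lists 31 hold more falls than rises, and 28 of these hold more rises with ERCC scaling.

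Naive pluripotency genes gave 5 rises and 14 falls of 24 (17 and 4 with ERCC scaling). Pou5f1, the stem cell factor OCT4, had 52.9 and 54.7 CPM in FL KDM6A libraries, against 150 and 177 CPM in FL KDM6B libraries (-1.61 ± 0.06, edgeR adjusted p 3.6e-23), and stayed lower with ERCC scaling. Tbx3, a naive-state T-box factor, rose by 0.66. The 10 embryonic stem cell markers were all detected, with sums of 2351 and 2260 CPM with FL KDM6A, against 2514 and 2552 CPM with FL KDM6B. LIF and STAT3 targets gave 1 rise, Pramel7 (0.84), and 11 falls of 14 (8 and 2 with ERCC scaling), including Tfcp2l1, an effector of LIF signalling (-0.77). Formative and primed genes gave 7 rises, led by Lin28b (1.25), and 12 falls of 22 (15 and 1 with ERCC scaling). The shares with TMM were 7.14% higher and 78.6% lower for LIF and STAT3 targets, and 31.8% and 54.5% for formative and primed genes.

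Signalling targets were mixed. Of 17 Wnt targets 6 rose and 2 fell (12 and 0 with ERCC scaling), with Notum, a Wnt-inactivating enzyme, at 1.19 and Ccnd1 at -0.72, though their median was -0.23. Nodal and BMP targets gave 6 rises and 5 falls of 16 (14 and 2 with ERCC scaling). Lefty2, a secreted Nodal inhibitor, had 16.6 and 17.1 CPM with FL KDM6A, against 4.77 and 4.79 CPM with FL KDM6B (1.82 ± 0.11). Id2, a BMP target, had 3.30 and 2.80 CPM, against 13.5 and 14.3 CPM (-2.19 ± 0.15). ERK targets gave 3 rises and 11 falls of 21 (8 and 4 with ERCC scaling), with the inhibitor Spred1 at 0.59 and Jun at -1.3.

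Genes of the 2-cell stage, which mark a rare totipotent-like state of stem cell cultures, rose as a group. Of 31 tested, 25 rose and 1, Gata2, fell (28 and 1 with ERCC scaling), with a median log2 fold change of 1.39 against 0.08 over all genes. Zscan4e had 65.3 and 60.7 CPM in FL KDM6A libraries, against 11.9 and 12 CPM in FL KDM6B libraries (2.40 ± 0.07, edgeR adjusted p 2.2e-27). Its libraries were far apart, and the Zscan4 genes are near-identical, so reads may be divided among them uncertainly. The list summed to 549 and 517 CPM with FL KDM6A, against 199 and 197 CPM with FL KDM6B, and the full-length KDM4 libraries lay above both at 685 to 729 CPM. More cells in this state and more of these RNAs per cell cannot be told apart in bulk samples.

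Markers of other cell types gave more falls than rises with TMM, with single fibroblast and neural genes higher. So did protein-coding genes at large (20.3% higher and 40.7% lower). Primitive endoderm genes gave 0 rises and 13 falls of 21 (7 and 2 with ERCC scaling). Sparc had 50.1 and 52.7 CPM with FL KDM6A, against 121 and 120 CPM with FL KDM6B (-1.23 ± 0.05). Trophectoderm genes gave 0 rises and 13 falls of 16, the lean to falls staying with ERCC scaling (4 rises and 5 falls). Tfap2c, a trophoblast and germline factor, had 10.7 and 10.5 CPM, against 41.3 and 45.8 CPM (-2.04 ± 0.09). Mesendoderm genes gave 1 rise (Wnt3, 0.74) and 5 falls of 15 (3 and 0 with ERCC scaling), with Eomes at -1.04. Neural genes gave 4 rises and 5 falls of 19 (11 and 0 with ERCC scaling), with Stmn2 at 0.58 and Nes at -0.79. Fibroblast genes gave 4 rises and 6 falls of 14 (10 and 1 with ERCC scaling). Vim fell (-1.28) and Col6a1 rose (2.30). Of 9 fibroblast feeder markers only Lum had no reads in the 4 libraries. The 9 summed to 2910 and 2788 CPM with FL KDM6A, against 3318 and 3446 CPM with FL KDM6B. Of the 5 tested, 1 was higher and 2 were lower with FL KDM6A. The marker sets summed to 604 and 598 CPM with FL KDM6A, against 997 and 1013 CPM with FL KDM6B, for primitive endoderm, and to 28.5 and 27.9 CPM, against 82.4 and 85.6 CPM, for trophectoderm. Their part in the other results was not tested.

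Abundant housekeeping and stress transcripts gave more falls than rises with TMM. Ribosomal protein genes gave 3 rises and 82 falls of 89, with a median log2 fold change of -1.35, and they kept more falls than rises with ERCC scaling (18 rises and 62 falls). Rplp2, a ribosomal stalk protein gene, had 136 and 140 CPM in FL KDM6A libraries, against 538 and 555 CPM in FL KDM6B libraries (-1.99 ± 0.04). Rpl24 (0.68) went the other way, but its adjusted p was 0.0691 without the second FL KDM6A library. All 13 mitochondrially encoded genes fell, 12 of them with ERCC scaling too. The cytochrome oxidase gene mt-Co1 had 302 and 290 CPM, against 1279 and 1245 CPM (-2.09 ± 0.04). Mitochondrial transcripts lie outside chromatin, and they took 0.214% and 0.240% of gene reads with FL KDM6A, against 0.536% and 0.531% with FL KDM6B. Their part in the other results was not tested.

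Heat shock genes gave 1 rise and 15 falls of 19 (9 and 8 with ERCC scaling). Hsp90aa1, an HSP90 chaperone gene, had 1137 and 1065 CPM with FL KDM6A, against 3006 and 3091 CPM with FL KDM6B (-1.47 ± 0.03). Hypoxia and glycolysis genes gave 3 rises, led by P4ha2 (0.90), and 27 falls of 31 (14 and 11 with ERCC scaling), led by the glycolytic gene Aldoa (-1.43). ATF4 and unfolded-protein-response genes gave 5 rises and 20 falls of 30 (20 and 2 with ERCC scaling), between the amino acid transporter Slc7a3 (1.83) and the endoplasmic reticulum chaperone Hsp90b1 (-0.99). P53 targets gave 2 rises and 17 falls of 23 (14 and 3 with ERCC scaling), with Plk2 at -1.13. Cholesterol synthesis genes gave 2 rises and 19 falls of 25 (17 and 2 with ERCC scaling), with Fdft1, squalene synthase, at -0.85. Mitotic genes gave 1 rise, Mad2l1 (0.21), and 26 falls of 29 (28 and 1 with ERCC scaling), with Anln at -0.75. Replication-dependent histone genes gave 6 rises and 34 falls of 65 (39 and 3 with ERCC scaling), with Hist1h2ac at 1.12 and Hist1h4d at -1.23. Interferon-stimulated genes were mixed, with 5 rises and 8 falls of 24 (17 and 1 with ERCC scaling), between Oas2 (0.44) and Ifitm3 (-1.15). With TMM the share of falls was 40.7% for protein-coding genes at large and 58.8% in their highest level bin. It was 33.3% for interferon-stimulated, 52.3% for histone and 66.7% for ATF4 and unfolded-protein-response genes. P53, cholesterol, heat shock, hypoxia and glycolysis, and mitotic lists had 73.9% to 89.7%. The rises of Hsph1 (0.13) and Zmat3 (0.12) lost the threshold when single libraries were left out, at adjusted p up to 0.109 and 0.172.

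Nuclear noncoding RNAs leaned upward, with 18 rises and 6 falls of 29 (28 and 1 with ERCC scaling). Kcnq1ot1, the long antisense RNA that silences the Kcnq1 imprinted domain, had 2048 and 2045 CPM in FL KDM6A libraries, against 725 and 714 CPM in FL KDM6B libraries (1.51 ± 0.03, edgeR adjusted p 1.29e-31). Meg3, an imprinted noncoding RNA, had 580 and 576 CPM, against 766 and 795 CPM (-0.43 ± 0.03, and 0.49 with ERCC scaling). Imprinted genes as a list gave 9 rises and 21 falls of 40 (28 and 2 with ERCC scaling), with Peg3, a zinc finger gene, at -1.29. Germline genes gave 9 rises and 16 falls of 35 (24 and 0 with ERCC scaling), with Stk31 at 0.66 and Tuba3a at -1.10. The shares were 22.5% higher and 52.5% lower for imprinted and 25.7% and 45.7% for germline genes. Protein-coding genes at large gave 20.3% and 40.7%. Of 21 genes of the m6A RNA methylation machinery 6 rose and 6 fell (20 and 1 with ERCC scaling). Hnrnpa2b1, an m6A reader, rose by 0.74 and Alkbh5, an m6A demethylase, fell by 1.16 on the log2 scale. Of 6 structured RNAs tested only Rny1 passed (-2.52, adjusted p 0.0267), and it lost the threshold without either of 2 libraries, at adjusted p 0.138 and 0.161.

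Clustered receptor and protocadherin families, little expressed in stem cells, rose under both scalings. Of 1734 olfactory and vomeronasal receptor genes 279 were tested, of which 159 rose and 4 fell (205 and 3 with ERCC scaling). A receptor gene silent in FL KDM6B could pass the filter through another group, so the median of 2.07, or 1.87 with the 51 genes that lack reads in a group at their bound or left out, describes only the genes tested. Olfr986 had 73.2 and 70.9 CPM with FL KDM6A, against 13.8 and 14.3 CPM with FL KDM6B (2.36 ± 0.07), and Olfr57 fell by 1.86. Of 58 clustered protocadherin genes 36 were tested, of which 23 rose and 0 fell (32 and 0 with ERCC scaling), with Pcdhgb5, a cell adhesion gene of the gamma cluster, at 1.71. The exons of that cluster overlap, which leaves single members uncertain. Zfp genes gave 102 rises and 157 falls of 399 (339 and 4 with ERCC scaling), with Zfp202 at 1.29 and Zfp773 at -1.47. Their shares, 25.6% and 39.3%, lay near the 20.3% and 40.7% of protein-coding genes at large.

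The IDR-deleted forms gave a second pair of the same demethylases in 4 other libraries. This pair lay across the same split of libraries. On the first axis of the scaling plot IDR-deleted KDM6A lay at 1.15 and 1.18 and IDR-deleted KDM6B at -1.62 and -1.56. ERCC RNAs came to 0.813% and 0.806% of gene reads with IDR-deleted KDM6A, against 1.52% and 1.55% with IDR-deleted KDM6B. Likeness between the 2 pairs therefore cannot be told apart from the split. Without the IDR, KDM6A and KDM6B differed at 18940 genes (61%), 9660 (31.1%) higher and 9280 (29.9%) lower with KDM6A. Of the 15759 full-length calls, 12812 (81.3%) were also called in the same direction in the IDR-deleted pair, which is 67.6% of the calls there, and 373 in the opposite direction. Across 31057 genes the log2 fold changes of the 2 pairs correlated at r = 0.70 (rho = 0.75), a description across genes, which are not independent. Of the lists, 2-cell-stage genes gave 25 rises and 3 falls in the IDR-deleted pair, ribosomal protein genes 4 and 83, mitochondrially encoded genes 0 and 13, and receptor genes 156 and 7. Kdm6a was higher by 2.12 in the full-length and by 2.15 in the IDR-deleted pair (log2).

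A test of the difference between the pairs, the interaction, passed for 6768 genes (21.8%), 4803 of them full-length calls. In 3281 of these 4803 the difference had the same sign and was larger in the IDR-deleted pair, in 715 it was larger in the full-length pair, and in 807 the sign was opposite. Rhox5, an X-linked homeobox gene, had 3.75 and 5.11 CPM with FL KDM6A, against 20.2 and 22.9 CPM with FL KDM6B, and 9.81 and 8.22 CPM with IDR-deleted KDM6A, against 8.81 and 9.10 CPM with IDR-deleted KDM6B. Its difference was -2.29 in the full-length pair and 0.01 without the IDR (interaction -2.30, edgeR adjusted p 7.02e-12). Grm8, a metabotropic glutamate receptor gene, was lower with FL KDM6A (-1.85) and higher with IDR-deleted KDM6A (0.82), and Rgs17, a G protein signalling regulator, the reverse (1.40 and -1.44). The Rgs17 rise in the full-length pair was not past the threshold without the second FL KDM6B library (0.98, adjusted p 0.137) or the first FL KDM6A library (0.95, 0.184). Fam83f (-1.49 and -4.77) and Sowaha (-1.26 and -4.24) fell in both pairs and more without the IDR. The same held for Hs3st3a1, a heparan sulfate sulfotransferase gene (-1.42 and -4.58), whose full-length fall was not past the threshold without 1 of 3 libraries (adjusted p 0.0604 to 0.144) and whose interaction had an adjusted p of 0.0618 without the first IDR-deleted KDM6B library. Slco1c1 had 68.2 and 67.5 CPM with IDR-deleted KDM6A, against 10.2 and 10.4 CPM with IDR-deleted KDM6B, so its full-length difference was the larger one (interaction 2.21).

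**Figure D4:**
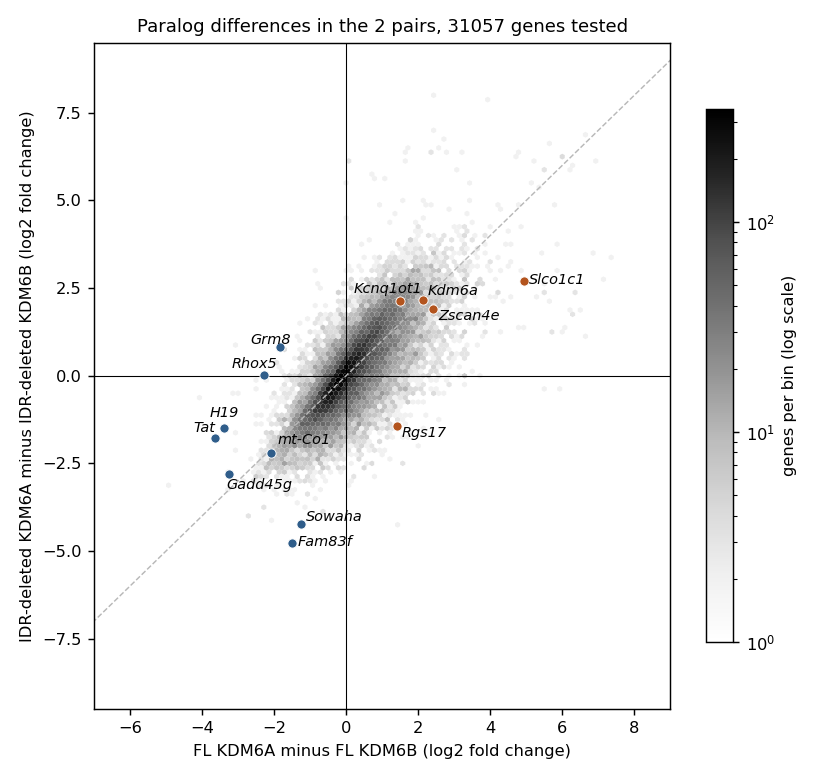
Log2 fold change of each of 31057 genes tested, FL KDM6A minus FL KDM6B (x axis) against IDR-deleted KDM6A minus IDR-deleted KDM6B (y axis), with grey depth for genes per bin and the dashed line marking equality. Most genes lie along a slope through 0 (r = 0.70), while Rhox5, Grm8 and Rgs17 stand off it.

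Full-length KDM4A and KDM4B libraries served as a further reference that neither KDM6 group shares. On the first axis of the scaling plot they lay at 0.98 and 1.05 (KDM4A) and at 1.90 and 1.90 (KDM4B). That is the FL KDM6A side of the split, whereas IDR-deleted KDM4A lay at the FL KDM6B end (-1.66 and -1.67). Nearness to FL KDM6A therefore cannot be told apart from the split, and it does not show which KDM6 group changed. The mean of these 4 libraries lay nearer to FL KDM6A than to FL KDM6B for 88.6% of the 7981 genes that rose and 88.0% of the 7778 that fell, against 62.3% of genes not called. Kcnq1ot1 had 1998 to 2612 CPM there, Zscan4e 78.5 to 103 CPM, Pou5f1 69.2 to 77.9 CPM and mt-Co1 293 to 351 CPM, each near FL KDM6A or beyond it on the side away from FL KDM6B, except that Pou5f1 lay between the groups. Hoxb9 (17.1 to 21.5 CPM) and Id2 (2.50 to 3.49 CPM) matched the FL KDM6A range as well.

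Repeats separated the groups in amount and in kind. Of 60 repeat families tested with their own TMM scaling, 36 (60%) passed, 19 higher (31.7%) and 17 lower (28.3%) with FL KDM6A. On the library sizes of the genes 52 were higher and 2 lower, and with ERCC scaling 57 and 1. The LINE/L1 family had 172483 and 167517 CPM of repeat reads with FL KDM6A, against 133353 and 131215 CPM with FL KDM6B (0.36 ± 0.02, edgeR adjusted p 3.96e-12), and 0.35 over copies outside gene spans. RC/Helitron (0.59) and DNA/MULE-MuDR (0.59) rose, as did DNA/PiggyBac (0.38) and DNA/Crypton (0.36), but over copies outside gene spans none of these 4 passed, and PiggyBac had the opposite sign (-0.21).

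The srpRNA family, copies related to the signal recognition particle RNA, had 585 and 590 CPM with FL KDM6A, against 4801 and 5679 CPM with FL KDM6B (-3.16 ± 0.12, edgeR adjusted p 3.49e-08). Under every scaling the family sum was lower. However, 1 copy on chromosome 12 (69407956 to 69408255, GRCm39) drew 51.6% of the family's reads with FL KDM6A, against 61.1% with FL KDM6B. Copies outside gene spans differed by only -0.17 (adjusted p 0.318). Of single srpRNA copies, 14 were higher and 3 lower on gene library sizes (median log2 fold change 0.52). Scaled by the copies, 5 were higher and 10 lower (median -0.07). A fall as large as that of the family was thus not seen in most copies. The rRNA family fell by 1.52 on the log2 scale, but not past the threshold without 1 of 2 libraries (adjusted p 0.117 and 0.167), in a fit of the 4 libraries alone (0.101), on gene library sizes (-0.96) or with ERCC scaling (-0.039). DNA/hAT-Tip100 (-1.0) rested on 1 copy on chromosome 17 (40153889 to 40154054), which drew 97.2% of the family's reads with FL KDM6A, against 98.7% with FL KDM6B. Close to it lies the rRNA copy with the most reads (40157244 to 40159092). That copy drew 38.8% of the rRNA family's reads with FL KDM6A, against 37.0% with FL KDM6B. These 2 copies are thus neighbours, though most rRNA family reads lie on other copies. Whether the 2 copies count the same RNA was not tested. LINE/L1-Tx1 (-0.66) and Satellite/Y-chromosome (-0.62) were lower by TMM but not past the threshold on gene library sizes. By ERCC scaling hAT-Tip100, L1-Tx1 and Satellite/Y-chromosome were higher. A single copy on chromosome 10 (127954806 to 127954866) drew 39.6% of the Satellite/Y-chromosome reads with FL KDM6A, against 60.6% with FL KDM6B. For L1-Tx1, 1 copy on chromosome 2 (121721412 to 121721632) drew 54.3%, against 55.8%. Over copies outside gene spans neither family passed (0.23 for Satellite/Y-chromosome and -0.25 for L1-Tx1).

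At the level of single copies, tested on the library sizes of the genes, 161392 of 716086 copies (22.5%) passed, 151407 higher (21.1%) and 9985 lower (1.39%) with FL KDM6A. Scaling by the copies themselves gave 43993 rises and 37240 falls, so the lean to rises depends on the scaling. Leaving out 1 library gave 92685 calls (without the second FL KDM6B library) to 108860. Long copies of the LTR/ERVL family, the endogenous retroviruses that include the MERVL elements of 2-cell embryos, rose almost without exception under each scaling. Of 614 ERVL copies of at least 5000 bases, 610 rose and 0 fell, with a median log2 fold change of 1.78. Scaled by the copies, 595 rose and 0 fell (median 1.20), and with ERCC scaling all 614 rose. Together they held 5262 and 5074 CPM of gene reads with FL KDM6A, against 1670 and 1518 with FL KDM6B, and 5189 to 6441 in full-length KDM4 libraries. In the IDR-deleted pair, which lay across the same split of libraries, 610 of the 614 were higher as well. Shorter ERVL copies gave 4027 rises and 124 falls of 14535, or 1409 and 625 scaled by the copies. The table labels copies by family only, so MERVL itself was not separated.

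LINE/L1 copies leaned to rises under each scaling. Of 11344 L1 copies of at least 5000 bases 6371 rose and 7 fell, or 1516 and 30 scaled by the copies. Shorter L1 copies gave 33202 rises and 418 falls of 97372, or 12883 and 2182, and their median log2 fold change was 1.05, against 1.03 for long copies. Long copies of the LTR/ERVK family, which holds the intracisternal A particles, gave 204 rises and 3 falls of 1136, or 40 and 19. On gene library sizes their share of rises lay below the 21.1% of all copies tested, so they did not stand out as higher. SINE copies leaned to rises on gene library sizes and to falls when scaled by the copies: B2 gave 17815 rises and 2230 falls of 108877 on gene library sizes and 3937 rises and 7278 falls scaled by the copies. B2 copies outside gene spans gave 1953 rises and 667 falls of 14960, or 576 and 1178.

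**Figure D5:**
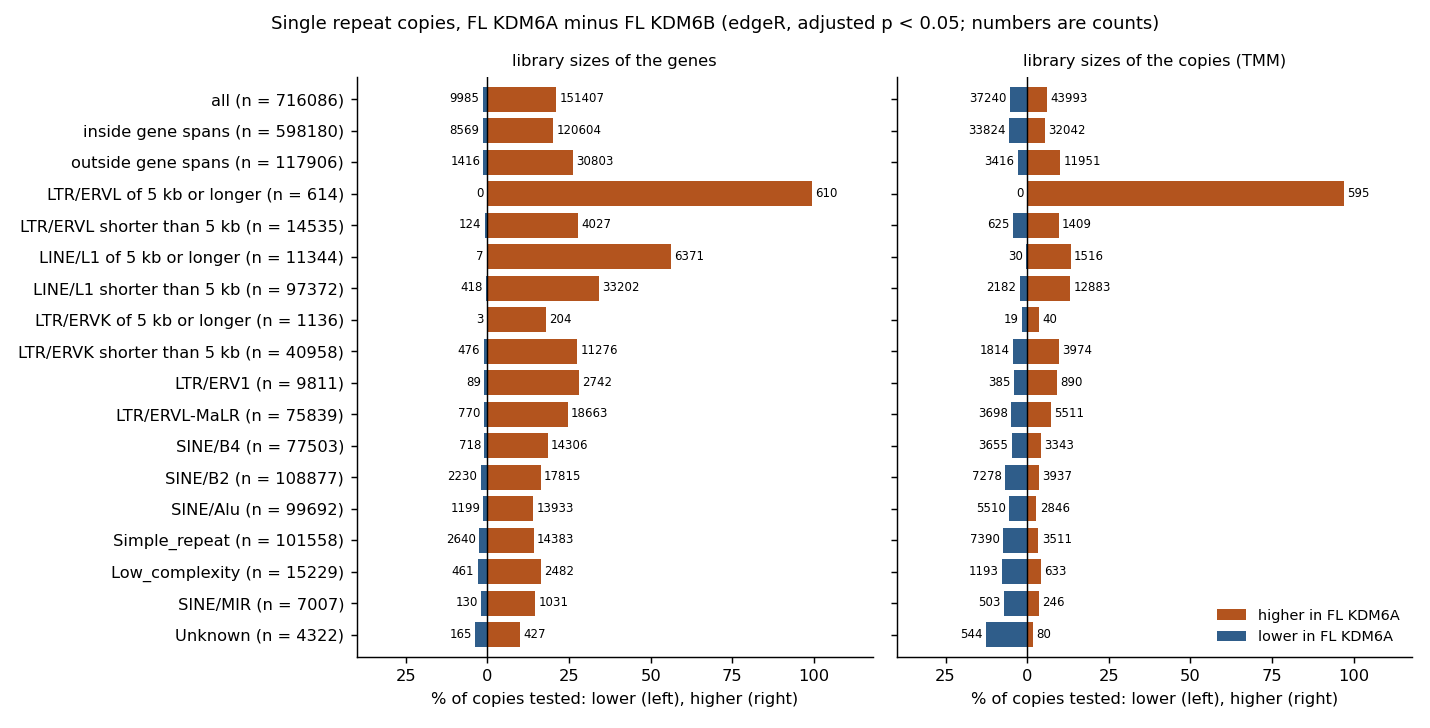
Percent of tested repeat copies, by family and length, that were lower (left of 0) or higher (right of 0) in FL KDM6A than in FL KDM6B, on the library sizes of the genes (left panel) and of the copies (right panel), with counts at the bar ends. Long ERVL copies stand out in both panels (610 and 595 rises of 614, 0 falls), whereas over all copies 151407 rises become 43993 and 9985 falls become 37240.

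The single copies with the largest differences lay at few loci. An L1 copy on chromosome 17 (40168917 to 40169304) had 49181 and 49760 reads in FL KDM6A libraries, against 5 and 1 reads in FL KDM6B libraries. That is 1110 and 1421 CPM of gene reads with FL KDM6A, against 0 to 34.3 in full-length KDM4 libraries. This L1 copy did not differ in the IDR-deleted pair (0.38, adjusted p 0.868). It lies near the hAT-Tip100 and rRNA copies of chromosome 17 given above, and whether they count the same RNA was not tested. Within the same region, a low-complexity copy (40187168 to 40187402) had 2 and 2 reads with FL KDM6A, against 9607 and 5 with FL KDM6B, and an L1 copy (40209955 to 40211969) had 6 and 5 reads, against 4859 and 24. Both falls rest on the first FL KDM6B library and had adjusted p of 0.843 and 0.214 without it. On chromosome 16, 2 ERVK copies (19027132 to 19027393 and 19058673 to 19059203) and an L1 copy inside Gm43388 (19038202 to 19040803) had 0 reads with FL KDM6B and were at least 57.8-fold, 42.6-fold and 51.7-fold higher with FL KDM6A, counted against 3 reads over the group. Olfr164 lies nearby on that chromosome (19102854 to 19132814). An ERV1 copy on chromosome 6 (65266066 to 65268176) was at least 44.5-fold higher. The largest falls seen in both FL KDM6B libraries were 3 B2 copies, among them 1 inside Clasp1 on chromosome 1 (118362326 to 118362505), with 0 and 6 reads, against 33 and 109. The B2 copy on chromosome 9 (108144353 to 108144540) had 7 and 0 reads, against 85 and 115, and the one on chromosome 4 (148674845 to 148675029) 4 and 12 reads, against 100 and 171.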

How the data were processed

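Chromatin-associated RNA was sequenced after rRNA depletion with a stranded kit, per the labels' protocols. The deposited gene and repeat tables hold raw read counts, made by the authors with featureCounts 2.0.3 on GRCm39 alignments at a mapping quality of at least 30, per the file headers. Mates entered the counts singly and without regard to strand, so counting intervals cover counting error only and may be too narrow. The submitters' processing notes also name HISAT2, SAMtools, Picard and MACS2. Members, lists and tests were chosen with earlier results of these data known.

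Genes (56941 entries, 92 ERCC RNAs kept apart) were filtered with filterByExpr (minimum count 10) and tested with edgeR 4.0.16 in R 4.3.3: TMM, 1 robust quasi-likelihood fit of 16 libraries in 8 groups (8 residual degrees of freedom), Benjamini-Hochberg at 0.05. The SE is the log2 fold change over the root of F. CPM use TMM library sizes. Single repeat copies needed 5 reads in 2 libraries. An exact permutation p for 2 against 2 libraries cannot go below 0.33, so library shares carry no test. The floor was 3 reads per group. Named genes were the demethylases, all MLL3/MLL4 and PRC2 members, the 12 largest rises and falls at 1 CPM or more whose groups do not overlap, excluding gene models, the top rise and fall of each list 5 genes each way for the interaction, and 5 families and copies each way. Alternatives were median-ratio and ERCC scaling, other filters, DESeq2 1.42.0, a replicate block, fewer libraries and leaving out each library. Tests were checked on simulated data in which few features changed. The gene test recovered 25.4% of changed genes at a log2 change of 0.5, 55.2% at 1 and 90.9% at 2. The copy test recovered 14.9% at 1, with TMM there and not the gene library sizes. Some items that the naming rule selects are not reported here.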

Additional observations from a re-analysis of the deposited data

Results flagged for a closer look

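Genes chosen by the naming rule whose difference between KDM6A and KDM6B was not the same in the full-length and the IDR-deleted pair are given here with the difference of the 2 log2 fold changes, full-length minus IDR-deleted, each past an adjusted p of 0.05 in edgeR's interaction test. Among genes below 0, the sign differed between the pairs for Grm8 (-2.66), Rhox5 (-2.30), Jarid2 (-0.27) and Kmt2c (-0.22). The difference had the same sign and was larger in size in the full-length pair for H19 (-1.89), Tat (-1.88), Id2 (-0.82), Sparc (-0.80), Ccnd1 (-0.62), Plk2 (-0.45), Dnmt3b (-0.39), Hsp90b1 (-0.22), Rbbp7 (-0.19), Rbbp4 (-0.18), Tfcp2l1 (-0.16) and Anln (-0.13). It was larger in size in the IDR-deleted pair for Olfr1432 (-4.75), Speer4cos (-2.03), Fabp5l2 (-1.99), Hoxb9 (-0.96), AU022751 (-0.80), Olfr986 (-0.73), Pramel7 (-0.72), Wnt3 (-0.69), Kcnq1ot1 (-0.61), Aebp2 (-0.49), Zfp202 (-0.47), Kdm5b (-0.35), Kmt2d (-0.30), Tbx3 (-0.30), Zmat3 (-0.29), Spred1 (-0.28), Hsph1 (-0.25), Ash2l (-0.25) and Tet1 (-0.18). Among genes above 0, the sign differed for Stmn2 (0.86) and Rgs17 (2.84). The full-length difference was the larger for P4ha2 (0.27), Fam208a (0.35), Lin28b (0.39), Zscan4e (0.50), Lefty2 (0.98), Slco1c1 (2.21), Olfr167 (2.78) and Iglv1 (2.85), and the IDR-deleted one for Fdft1 (0.21), Rplp2 (0.22), Alkbh5 (0.25), Ezh2 (0.26), Kdm4b (0.28), Meg3 (0.43), Hist1h4d (0.52), Phf19 (0.53), Aldoa (0.56), Olfr57 (0.62), Ezh1 (0.65), Peg3 (0.72), Hoxa10 (1.20), Olfr1351 (1.25), Inka1 (1.30), Sowaha (2.98), Hs3st3a1 (3.16) and Fam83f (3.27). Olfr1432 had 0 reads in both IDR-deleted KDM6B libraries, so its value depends on the prior count of the fit and is no bound, and it lost the threshold without any 1 of 7 libraries. The values of Iglv1 and Speer4cos also lost it without 1 library, at adjusted p of 0.0580 and 0.0696 for Iglv1 and 0.111 to 0.266 for Speer4cos.

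Of the named repeat families, 4 passed the same test: DNA/PiggyBac (-0.32), LINE/L1 (0.090), srpRNA (0.99) and Satellite/Y-chromosome (0.25). The srpRNA and Satellite/Y-chromosome families were lower with KDM6A in both pairs and by more in the IDR-deleted one, while DNA/PiggyBac was higher in both and by more in the IDR-deleted one. With FL KDM6B, 1 copy drew 61.1% of the srpRNA reads and 1 copy 60.6% of the Satellite/Y-chromosome reads. LINE/L1 was higher in both pairs, by 0.36 in the full-length and 0.27 in the IDR-deleted pair with the scaling of the families, whereas its single copies on gene library sizes had medians of 1.05 and 1.40.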

How the results depend on the processing

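Counts of calls in the 3 gene comparisons moved by less than 1.5 times, and 0 full-length calls took the opposite direction, with median-ratio scaling, no filter, a minimum count of 50, DESeq2, the 4 libraries alone or a replicate block. The replicate numbers did not pair the libraries (correlation of deviations 0.02 for the 2 full-length groups, -0.003 to 0.172 over 28 pairs of groups). The replicate block gave 16193 full-length calls, 8173 higher and 8020 lower. Leaving out 1 library gave 13481 to 13785 full-length calls (6582 to 6815 higher, 6802 to 7070 lower), 16861 to 17251 in the IDR-deleted pair (8388 to 8671 and 8340 to 8580) and 5422 to 6058 for the interaction (2610 to 3015 and 2733 to 3043). Without 1 library 31 to 43 families passed (14 to 22 higher, 16 to 21 lower) and 92685 to 108860 copies (87341 to 102310 higher, 5344 to 6550 lower). The lowest copy count came without the second FL KDM6B library.

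ERCC scaling gave 22176 rises and 825 falls in the full-length pair, 21941 and 1549 in the IDR-deleted pair and 1728 and 5682 for the interaction. It gave 58 families (57 and 1) and 446281 copies (445037 and 1244). Gene library sizes gave 52 rises and 2 falls of families, and scaling by the copies 81233 copies (43993 and 37240). Copies outside gene spans alone gave 22 families (12 and 10) and 32368 copies (30941 and 1427). The cause of these changes was not tested. With gene and repeat reads together as the denominator, the differences in share were -0.22 points for mitochondrial genes, -0.86 for ribosomal protein genes, 0.27 for TEC genes, 0.0166 for receptor genes, -0.38 for ERCC RNAs, 10.6 for repeats and 1.63 for repeats outside gene spans; leaving out 1 library gave -0.32 to -0.29, -1.23 to -1.18, 0.66 to 0.71, 0.0342 to 0.0357, -0.53 to -0.44, 31.6 to 32.7 and 5.13 to 5.48 points of gene reads, and -0.0337 to -0.0244 for histone genes.

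Single genes below 0 with TMM and above 0 with ERCC scaling were Anln (0.17), Ccnd1 (0.21), Eed (0.83), Epop (0.65), Ezh1 (0.24), Ezh2 (0.75), Fdft1 (0.070), Jarid2 (0.82), Kdm4a (0.47), Kdm4b (0.83), Kdm6b (0.70), Kmt2c (0.92), Meg3 (0.49), Mtf2 (0.91), Ncoa6 (0.76), Nes (0.13), Phf19 (0.55), Phf2 (0.19), Rbbp4 (0.29), Rbbp5 (0.52), Rbbp7 (0.55), Suz12 (0.34), Tfcp2l1 (0.15), Uhrf1 (0.38) and Wdr5 (0.73). So were the families DNA/hAT-Tip100 (0.47), LINE/L1-Tx1 (0.81) and Satellite/Y-chromosome (0.86). Outside gene spans DNA/PiggyBac had -0.21 and Satellite/Y-chromosome 0.23. Near 0, Kmt2c changed sign without a filter (0.0011) and at a minimum count of 50 (0.032), and ranged over -0.019 to 0.013 without 1 library (0.0012 without the second FL KDM6A library). Mtf2 had 0.025 at a minimum count of 50 and -0.060 to 0.042 without 1 library, and AU022751 -0.0088 to 0.35. Genes near 1 CPM rest on few reads, which limits the precision of their ratios.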

Other observations

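Protein-coding genes of chromosome 6 differed from those of the other autosomes. Of 827 tested, 282 were higher and 238 lower with FL KDM6A, and their median log2 fold change was 0.10, against -0.22 to -0.05 on the 18 other autosomes. In the IDR-deleted pair the chromosome 6 median was -0.21. Set against the median autosome, chromosome 6 stood at 0.08 in FL KDM6A and -0.12 in FL KDM6B, and at 0.26 in full-length KDM4B, 0.10 in full-length KDM4A and -0.15 in IDR-deleted KDM6B (log2). Slco1c1, Vmn1r52, Vmn1r-ps29, Grm8, Gata2, Hnrnpa2b1, Aebp2, Ezh2 and Hoxa10 lie on this chromosome. The part of the chromosome in their differences was not tested.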
